A study of Saccharina japonica with 2 samples.

Results

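The transcriptome of the brown alga Saccharina japonica held 10 unigenes annotated as subunits of casein kinase 2 (CK2), 6 of the catalytic subunit CK2α and 4 of the regulatory subunit CK2β. They were taken as all distinct unigenes that the study's annotation of clock homologues placed under these subunits within the plant circadian rhythm pathway. A unigene is a contig of the assembled transcriptome left after redundant sequences were merged. At least 1 uniquely aligned read fell on 70288 unigenes, all 10 CK2 unigenes among them, and the same pathway held 34 other unigenes. The CK2α unigenes were Unigene12607, Unigene21867, Unigene28863, Unigene61208, Unigene7401 and Unigene9399, and the CK2β unigenes were Unigene229, Unigene48109, Unigene5735 and Unigene49360.

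Both samples were vegetative tissue of healthy sporophytes, the large diploid stage of this kelp, with no genetic modification named. After 4 h of dark culture in sterilized seawater, one sample was exposed to blue light (BL) for 2 h and the other stayed in darkness for the same 2 h. The deposited labels call the plants mature thalli, whereas the study describes juvenile sporophytes. Polyadenylated RNA from pooled individuals gave 1 library per treatment, so the difference between treatments had no replicate check in the sequencing data. The tests below compare a pair of libraries rather than the treatments. The BL library held 11410538 uniquely aligned reads on 69362 unigenes, and the dark library held 10905306 on 61927. In whole tissue, fewer cells of a type and less RNA per cell cannot be told apart. The labels give no strain and no further age, and marker genes of kelp tissues were not examined.

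CK2 is a serine/threonine kinase found throughout eukaryotes, in which catalytic α subunits assemble around a dimer of regulatory β subunits. The α subunit is active without an external signal, and the β subunit steers it towards substrates and steadies the complex. In the land plant Arabidopsis, CK2 phosphorylates the clock transcription factors CCA1 and LHY, and plants with an altered dose of CK2 subunits keep a shifted circadian period. No such role is taken as known for kelps here.

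The annotation rested on similarity to proteins of land plants. The CK2α unigenes matched entries from grapevine, castor bean and sorghum, and the longer CK2β unigenes matched CKB1 of Arabidopsis. Among the α unigenes the match of Unigene9399 was the strongest, whereas those of Unigene12607, Unigene21867, Unigene28863 and Unigene7401 lay near the study's limit for a match. A general annotation of the same transcriptome, of which 1998 unigenes were at hand, held 1 of the 10, Unigene12607, and described it as a Ras-associated protein. Unigene49360 was filed under CK2β although its own description names an α subunit of rice. Whether each unigene encodes a CK2 subunit was not tested, because unigene sequences were not used here.

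The primer pair with which CK2α was measured by quantitative PCR in the study is shown because it is the only sequence of a CK2 transcript at hand. Its source does not say to which of the 6 α unigenes it belongs. Both primers are written 5′ to 3′ with no part capitalised. By this PCR, run in biological triplicates, the study reports CK2α as upregulated in BL, and the PCR values were not used here.
CK2α forward primer: tcattgggctgcatgttc
CK2α reverse primer: tgctggttctcagggttg
Each primer has 18 bases, and 50% of the bases of the forward primer and 55.6% of those of the reverse primer are G or C.

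Levels are given as RPKM, reads per kilobase of unigene per 1000000 uniquely aligned reads of the library, which allows levels of unigenes of different length to be compared. Ratios of the BL to the dark level are on the log2 scale, with exact Clopper-Pearson 95% intervals, which cover counting error only. A unigene was called upregulated or downregulated where P did not exceed 0.05, the false discovery rate (FDR) did not exceed 0.001 and the log2 ratio reached 1 in either direction. P came from the 2-sided Audic-Claverie test, a test of the reads of a unigene in one library given those in the other, and FDR from Benjamini-Hochberg adjustment over all 70288 unigenes.

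By these thresholds 2 of the 10 CK2 unigenes were upregulated in BL, the catalytic Unigene9399 and the regulatory Unigene48109, and 0 were downregulated. Under the same thresholds 25.0% of all unigenes were upregulated and 11.6% downregulated. The FDR threshold alone was passed by 5 CK2 unigenes, beside 44.8% of all unigenes. Of the 9 CK2 unigenes with reads in both libraries, 6 had a lower and 3 a higher level in BL. Their median log2 ratio was -0.18, and it was -0.13 with Unigene49360 placed at its limit, whereas the median of all unigenes with reads in both libraries was 0.42. P was at most 0.05 for 7 CK2 unigenes, a threshold that all unigenes past the FDR threshold also met. The share of all unigenes is not given for this P or for the edgeR test that follows, so these counts have no background beside them. With edgeR's exact test and an assumed coefficient of variation between samples, 2 CK2 unigenes were upregulated at a coefficient of 0.2 and 0 at 0.4.

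**Figure D1:**
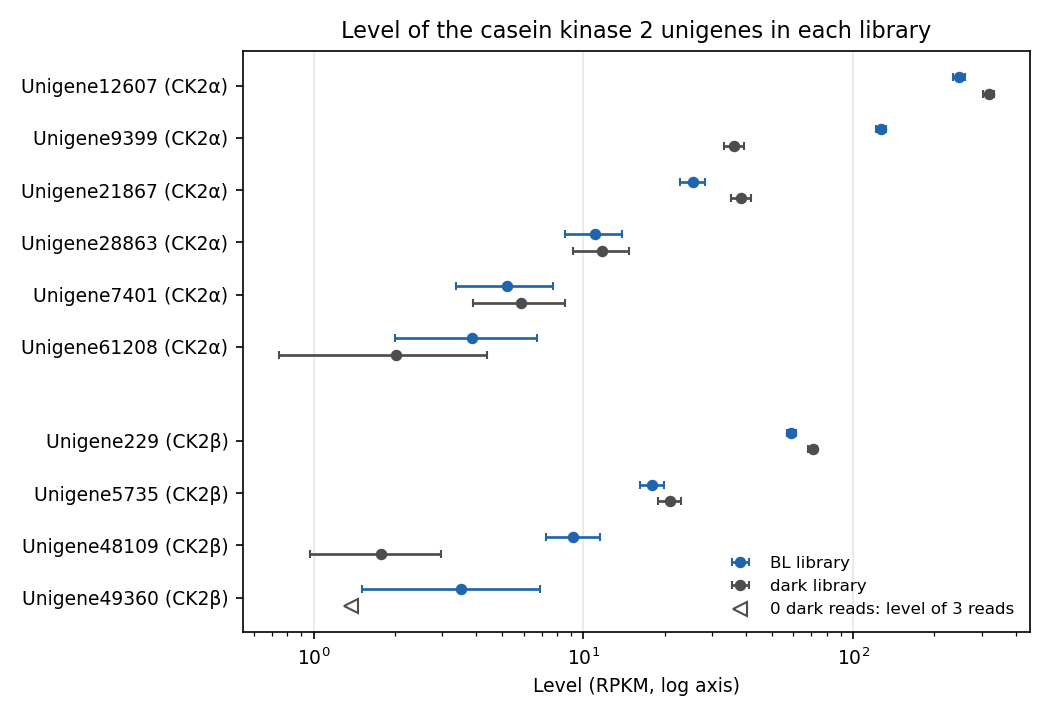
Level of each CK2 unigene in the BL and the dark library, in RPKM on a log axis, with 95% counting intervals and a triangle at the level of 3 reads for the dark count of 0. Unigene9399 stands at 127 RPKM in BL and 36.2 in darkness and Unigene48109 at 9.19 and 1.77, whereas the points of most other unigenes lie close together.

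Among the catalytic unigenes, Unigene9399 was the longest, with 1438 bp and 56.05% GC. It had 2081 BL reads and 567 dark reads, or 127 RPKM in BL and 36.2 RPKM in darkness. The BL level was 3.51-fold the dark level (interval 3.20 to 3.86), a log2 ratio of 1.81 (1.68 to 1.95), with an FDR of 2.39e-185 in the Audic-Claverie test. Unigene9399 was thus the α unigene with the clearest annotation and the only one of the 6 that was called. In rank among all unigenes its level lay at percentile 97.2 in the BL library and at 86.4 in the dark library.

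Unigene12607, of 526 bp and 62.36% GC, had the highest level of the 10 in both libraries. It had 1481 BL reads and 1823 dark reads, or 247 RPKM in BL and 318 RPKM in darkness. Its log2 ratio of -0.37 (-0.46 to -0.27) passed the FDR threshold with 2.23e-12 in the Audic-Claverie test but stayed below the threshold of the ratio. Its level in BL was 0.776 of that in darkness, so that the most abundant α unigene was somewhat lower in the library in which Unigene9399 was higher.

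Unigene21867, of 1216 bp and 49.10% GC, had 353 BL reads and 510 dark reads, which gave 25.4 RPKM in BL and 38.5 RPKM in darkness. Its log2 ratio was -0.60 (-0.80 to -0.40), the lowest among the CK2 unigenes, with an FDR of 7.49e-09 in the Audic-Claverie test. It too stayed below the threshold of the ratio. When the libraries were scaled by median-of-ratios size factors in place of total reads, its log2 ratio was -1.02 and it was called downregulated.

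The other α unigenes carried few reads, and none passed a threshold. Unigene28863, of 549 bp, had 69 BL reads and 70 dark reads, or 11.0 and 11.7 RPKM, with a log2 ratio of -0.09 (-0.59 to 0.41). Unigene7401, of 420 bp, had 25 BL reads and 27 dark reads, or 5.22 and 5.89 RPKM, and its log2 ratio was -0.18 (-1.02 to 0.66). At this depth a difference of these unigenes between the libraries was not detectable within intervals of that width. Unigene61208, of 272 bp, had 12 BL reads and 6 dark reads, or 3.87 and 2.02 RPKM, and its log2 ratio of 0.93 had an interval of -0.59 to 2.63. For this shortest α unigene the interval held both an equal level and one several times higher in BL.

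Among the regulatory unigenes, Unigene229 was the longest and most abundant, with 3614 bp and 52.02% GC. It had 2433 BL reads and 2786 dark reads, or 59.0 RPKM in BL and 70.7 RPKM in darkness. The log2 ratio of -0.26 (-0.34 to -0.18) passed the FDR threshold with 3.29e-10 in the Audic-Claverie test and stayed below that of the ratio. Unigene5735, of 1859 bp, went the same way with 381 BL reads and 424 dark reads, or 18.0 and 20.9 RPKM. Its log2 ratio of -0.22 (-0.42 to -0.02) had P of 0.0309 and an FDR of 0.0470 in the Audic-Claverie test, above the FDR threshold.

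Unigene48109, of 725 bp and 61.66% GC, was the β unigene called upregulated. It had 76 BL reads and 14 dark reads, or 9.19 RPKM in BL and 1.77 RPKM in darkness. Its BL level was 5.19-fold the dark level (2.91 to 9.94), a log2 ratio of 2.38 (1.54 to 3.31), with an FDR of 3.41e-10 in the Audic-Claverie test. It was a minor β transcript in both libraries, with 0.156 of the RPKM of Unigene229 in BL and 0.0250 of it in darkness. By rank among all unigenes its level lay at percentile 61.0 in the BL library and at 23.6 in the dark library.

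Unigene49360, of 200 bp, was read only in BL, with 8 BL reads and 0 dark reads. Its level was 3.51 RPKM in BL, and the count of 0 allows up to 3 reads, or 1.38 RPKM, in darkness. Against that limit it was 2.55-fold higher in BL, a value that takes the 8 BL reads as exact. The exact interval, which allows for counting error in both libraries, began lower, at 1.63-fold. With an FDR of 0.0160 in the Audic-Claverie test it was not called.

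**Figure D2:**
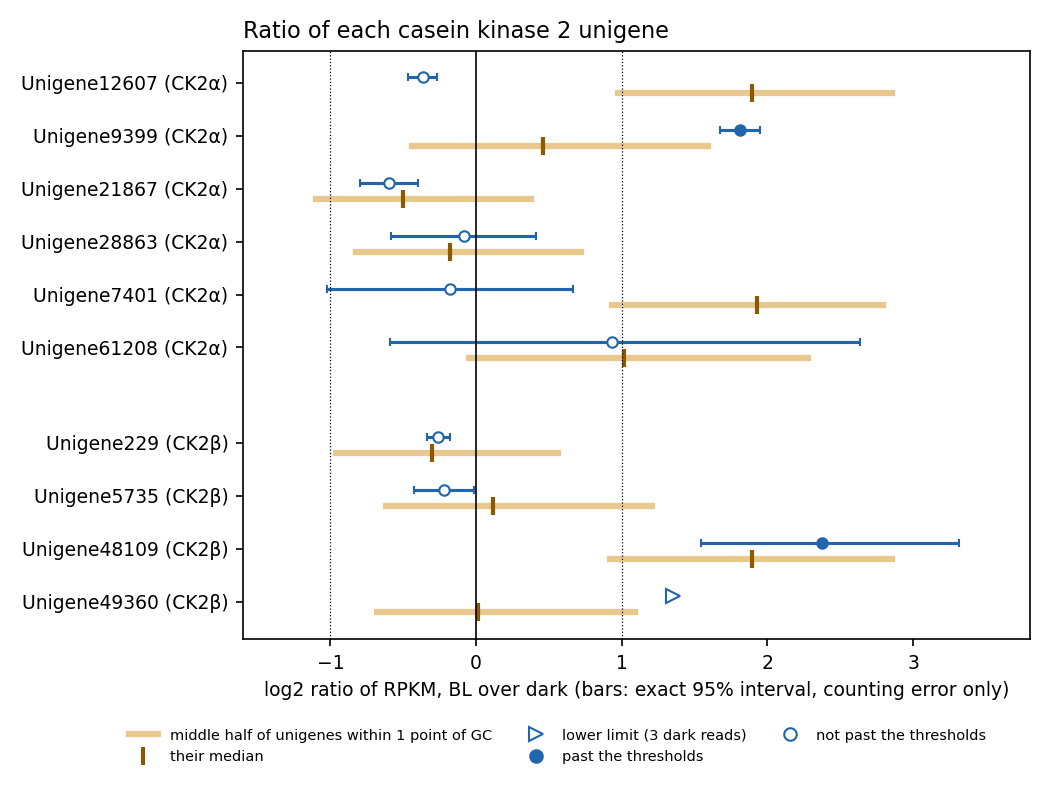
Log2 ratio of BL over dark RPKM for each CK2 unigene, with exact 95% intervals of counting error, with Unigene49360 drawn as a triangle at its lower limit of 1.35, and below each the median and quartiles (ochre) of unigenes within 1 percentage point of its GC content. Unigene9399 (1.81) and Unigene48109 (2.38) lie past the threshold of 1 with intervals clear of 0, whereas Unigene12607, Unigene21867, Unigene229 and Unigene5735 lie between -0.60 and -0.22.

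The ratios of paralogues were compared directly, as the ratio of 2 BL over dark ratios, in which the library totals cancel. The GC trend described below does not cancel between unigenes of unlike GC content, and it was left in place in all pairs. Log2 ratios with that trend removed were 1.39 for Unigene9399 and 0.50 for Unigene48109, and -2.23 for Unigene12607 and -0.09 for Unigene21867. The order within each of these 2 pairs was then the reverse of that given here. Of the 36 pairs among the 9 unigenes with reads in both libraries, 15 had an interval without 1. Of the 14 pairs that set Unigene9399 or Unigene48109 against another unigene, 12 were among these, and the exceptions were the pairs with the sparsely read Unigene61208. Unigene9399 against Unigene48109 gave 0.676 (0.350 to 1.22), so the α and the β unigene that were upregulated did not differ beyond counting error, within an interval that still spans a wide range.

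Within CK2α, the ratio of Unigene12607 was 0.221 that of Unigene9399 (0.197 to 0.249). Within CK2β, the ratio of Unigene48109 was 6.03 times that of Unigene5735 (3.32 to 11.7), and that of Unigene229 was 0.161 that of Unigene48109 (0.0838 to 0.288). Of the 15 pairs within CK2α, 5 had an interval without 1, of which 4 included Unigene9399, and of the 3 pairs within CK2β, 2 had one, both with Unigene48109. The main β unigenes differed little from each other, with 0.972 for Unigene229 against Unigene5735 (0.835 to 1.13). With the GC trend removed, log2 ratios were 0.50 for Unigene48109, 0.054 for Unigene229 and -0.35 for Unigene5735. Unigene48109 was then closer to both, and Unigene229 and Unigene5735 lay further apart.

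Among the 21 pairs without Unigene9399 and Unigene48109, 3 had an interval without 1, and all involved Unigene21867. Its ratio was below that of Unigene229 (0.793, 0.683 to 0.920) and of Unigene5735 (0.770, 0.632 to 0.939). Unigene12607 stood above it with 1.17 (1.01 to 1.37). With the GC trend removed, log2 ratios were -0.09 for Unigene21867, 0.054 for Unigene229 and -0.35 for Unigene5735. Unigene21867 then stood above Unigene5735 and less far below Unigene229. Intervals of these 36 pairs carry no correction for their number.

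The order of levels within each library differed mainly in the place of the upregulated unigenes. In BL the RPKM ran from Unigene12607 through Unigene9399, Unigene229, Unigene21867 and Unigene5735 to Unigene28863 and Unigene48109, which did not differ beyond counting error, and then to Unigene7401, Unigene61208 and Unigene49360, of which neighbours did not differ either. In darkness Unigene12607 was followed by Unigene229, then by Unigene21867 and Unigene9399, which did not differ beyond counting error, and by Unigene5735, Unigene28863 and Unigene7401. Unigene61208 and Unigene48109 came next without differing from each other. Unigene49360 was last, though it did not differ from Unigene48109 beyond counting error. Per length, Unigene9399 had 2.15 times the level of the main β unigene Unigene229 in BL, and 0.511 of it in darkness.

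Summed over its 6 unigenes, CK2α had 4021 BL reads and 3003 dark reads. The sum was 1.28-fold higher in BL (1.22 to 1.34), a log2 ratio of 0.36 (0.29 to 0.42). CK2β had 2898 BL reads and 3224 dark reads over its 4 unigenes, a fold of 0.859 (0.817 to 0.904) and a log2 ratio of -0.22 (-0.29 to -0.15). The ratio of α was 1.49 times that of β (1.39 to 1.60), a log2 difference of 0.57 (0.47 to 0.68) by reads.

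This difference between the subunits rested on Unigene9399, on counting by reads and on leaving the GC trend described below in place. With that trend removed, the log2 ratio was -0.30 for CK2α and 0.013 for CK2β, and the difference turned to -0.31. Without Unigene9399 the log2 ratio of CK2α was -0.39, and without Unigene12607 it was 1.04. As sums of RPKM, which weight short unigenes as much as long ones, CK2α stood at 419 in BL and 412 in darkness, a log2 ratio of 0.025, and CK2β at 89.7 in BL and 93.4 in darkness, a log2 ratio of -0.059. The summed RPKM of α was 4.67 times that of β in BL and 4.41 times in darkness. Unigene12607, whose match to CK2α lay near the study's limit, made up 58.9% of the α sum in BL and 77.1% in darkness. The median log2 ratio was -0.13 over the 6 α unigenes and -0.22 over the 3 β unigenes with reads in both libraries, against 0.42 over all unigenes. With Unigene49360 at its limit the median of the 4 β unigenes was 0.57, so the sign of the β median turned on that unigene.

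The make-up of CK2α differed between the libraries. Unigene9399 supplied 51.8% of the α reads in BL (exact interval 50.2 to 53.3) and 18.9% in darkness (17.5 to 20.3). Unigene12607 supplied 36.8% in BL (35.3 to 38.3) and 60.7% in darkness (58.9 to 62.5). The unigene with the most α reads was therefore Unigene9399 in BL and Unigene12607 in darkness. By RPKM, Unigene12607 kept the largest share in both libraries, with 58.9% in BL and 77.1% in darkness, and Unigene9399 had 30.3% in BL and 8.78% in darkness. Unigene21867 supplied 8.78% of the α reads in BL and 17.0% in darkness.

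CK2β kept 1 main unigene. Unigene229 supplied 84.0% of the β reads in BL and 86.4% in darkness, and Unigene5735 supplied 13.1% in BL and 13.2% in darkness. Unigene48109 had 2.62% of the β reads in BL (2.07 to 3.27) and 0.434% in darkness (0.238 to 0.728). By RPKM, Unigene48109 made up 10.2% of CK2β in BL and 1.90% in darkness.

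**Figure D3:**
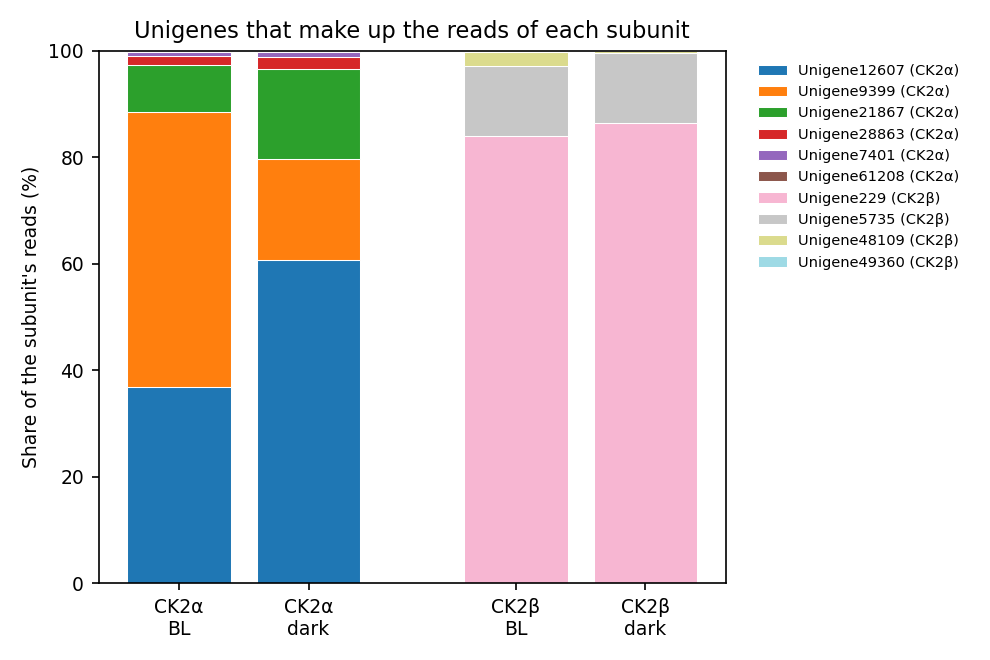
Share of each unigene in the reads of its subunit, in percent, as stacked bars for the BL and the dark library. Within CK2α the share of Unigene9399 is 51.8% in BL and 18.9% in darkness and that of Unigene12607 is 36.8% and 60.7%, whereas Unigene229 holds 84.0% and 86.4% of the CK2β reads.

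Across the 34252 unigenes that had reads in both libraries and no fewer than 50 together, the log2 ratio differed with GC content, the percentage of G and C bases. In 20 equal classes of GC content its median was -1.07 in the lowest class and 1.92 in the highest, with little change among the highest 3 classes (1.88, 1.86 and 1.92). Each member was therefore set beside such unigenes within 1 percentage point of its own GC content. Around Unigene9399 (56.05% GC) 2721 such unigenes had a median log2 ratio of 0.46, and 78.3% of them lay below its 1.81. Around Unigene48109 (61.66% GC) the median of 2284 unigenes was 1.90, and 63.1% lay below its 2.38. The upregulated β unigene thus lay near the level of unigenes of like composition, and the upregulated α unigene above most of them.

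Unigene12607 and Unigene7401 stood at the other side of the trend. Unigenes with the GC content of Unigene12607 (62.36%) had a median log2 ratio of 1.90, and 5.52% of the 1994 lay below its -0.37. For Unigene7401 (66.67% GC) the median was 1.93 and 7.37% of 434 lay below its -0.18, whose interval is wide. Both α unigenes thus had a level close to or below that in darkness in GC classes whose median was higher in BL.

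The other members with reads in both libraries lay in the middle of their GC classes. The medians were -0.50 around Unigene21867, -0.30 around Unigene229, -0.18 around Unigene28863, 0.11 around Unigene5735 and 1.01 around Unigene61208, and between 39.5% and 53.5% of the like unigenes lay below these members. Around Unigene49360 the median was 0.016 and the upper quartile 1.09. Its limit of 1.35, set at 3 dark reads, lay above that quartile, but its exact interval began at 0.71, below the quartile. With the trend removed, 1 CK2 unigene was upregulated, Unigene9399 with a log2 ratio of 1.39, and 2 were downregulated, Unigene12607 with -2.23 and Unigene7401 with -2.09, whereas Unigene48109 stood at 0.50. The share of all unigenes called with the trend removed is not given here, so these counts have no background beside them. The part of the GC trend in the ratios was not tested.

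**Figure D4:**
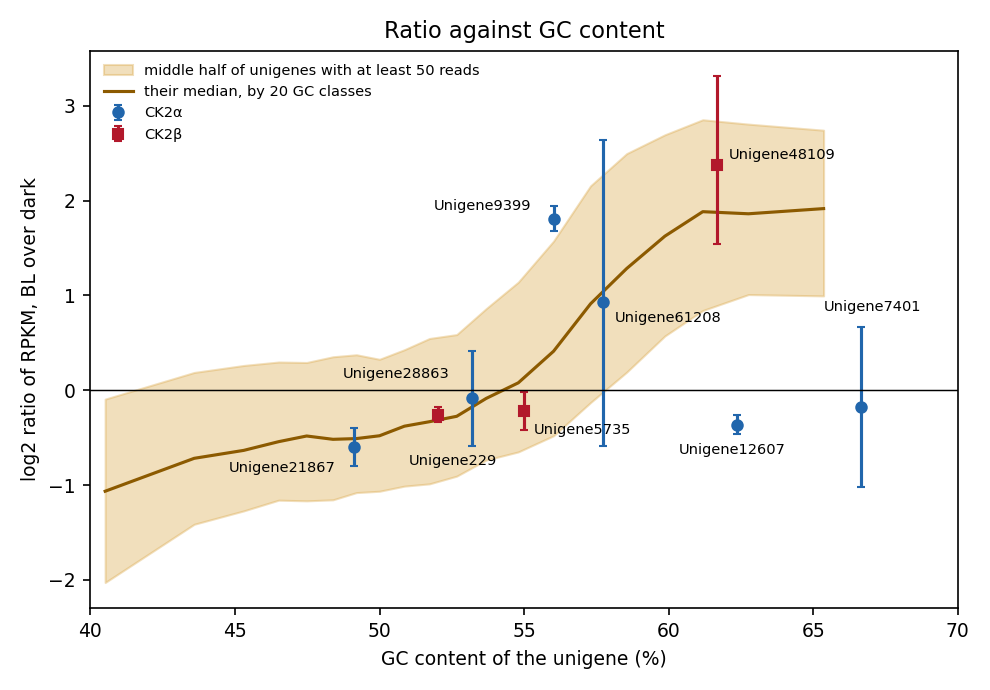
Log2 ratio of BL over dark RPKM against GC content in percent for the 9 CK2 unigenes with reads in both libraries, with 95% intervals, over the median and quartiles of unigenes with at least 50 reads in 20 GC classes. Unigene9399 (1.81) lies above the band, Unigene12607 (-0.37) lies below it and Unigene48109 (2.38) lies within it. Unigene7401 (-0.18), at 66.67% GC, lies past the end of the band at 65.36% GC, where the lower edge of the band is 0.99.

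The covered length, the percentage of a unigene with at least 1 read of a library, was not used to choose the members. Unigene28863 was covered over 60.7% of its 549 bp in BL and over 61.8% in darkness, with 216 bp and 210 bp left without a read. Unigenes within 10% of its length and 20% of its reads in the same library, here called like unigenes, were covered over a median of 96.6% in BL and 96.4% in darkness. Of these, 0.457% of 876 in BL and 0.368% of 543 in darkness lay below Unigene28863, so the reads of this α unigene were confined to part of it in both libraries.

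Unigene9399 was covered over 96.5% of its length in BL and over 99.4% in darkness, although it had more reads in BL. The uncovered length was 50 bp in BL and 8 bp in darkness. The BL minus dark difference in covered length was -2.92 percentage points, and among 752 unigenes with at least 300 dark reads and a log2 ratio of at least 1 a fall at least as large was seen in 20, against a median change of 0.695 points. Of 59 like unigenes in BL, 1.69% were covered over less of their length.

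For Unigene48109 the covered length followed the reads, with 97.8% in BL and 70.5% in darkness, beside medians of 97.0% in BL and 72.3% in darkness for like unigenes. Unigene12607 was covered over 95.4% in BL and 94.1% in darkness, whereas 51 like unigenes in the dark library had a median of 99.5%. Unigene229, Unigene21867 and Unigene5735 were covered over at least 93.8% in both libraries. No CK2 unigene held an unknown base.

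**Figure D5:**
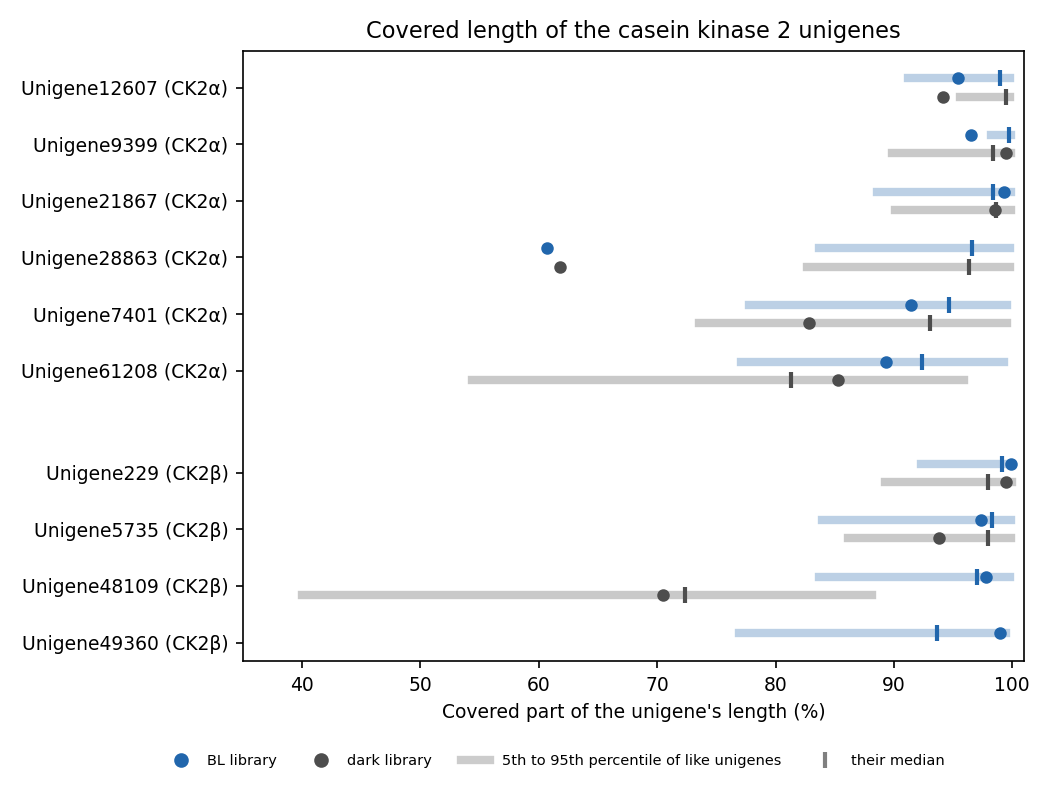
Covered length of each CK2 unigene in percent in the BL and the dark library, beside the median and the 5th to 95th percentile of unigenes of like length and reads in the same library. Unigene28863 lies at 60.7% in BL and 61.8% in darkness, far below the medians of 96.6% and 96.4%.

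The 34 other unigenes of the plant circadian rhythm pathway were listed by the study on this transcriptome, and 33 of them had a read. Of these, 20 were upregulated in BL and 0 downregulated, beside 25.0% and 11.6% of all unigenes. The 29 with reads in both libraries had a median log2 ratio of 2.27, from -0.79 to 6.59, and the median GC content of the list was 58.6%, compared with 55.5% for the CK2 unigenes and 52.3% for all unigenes. With the GC trend removed 9 were upregulated and 4 downregulated, and with edgeR's exact test at an assumed coefficient of variation of 0.4 between samples 4 were upregulated. Shares of all unigenes called under these alternative settings are not given here. Together the other clock unigenes held 5812 BL reads and 1088 dark reads, compared with 6919 BL reads and 6227 dark reads on the 10 CK2 unigenes.

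The homologues of CCA1 and LHY, which are substrates of CK2 in Arabidopsis, comprised 3 unigenes. Unigene11759 had 268 BL reads and 53 dark reads, a log2 ratio of 2.27 (1.84 to 2.73), and Unigene10312 had 78 BL reads and 15 dark reads, a log2 ratio of 2.31 (1.50 to 3.22). Both were upregulated. Unigene951, with 139 BL reads and 80 dark reads, had a log2 ratio of 0.73 (0.32 to 1.15) and an FDR of 0.000714 in the Audic-Claverie test, and was not called. With the GC trend removed the log2 ratios were 1.20 for Unigene11759, 0.90 for Unigene10312, which is below the threshold, and -1.02 for Unigene951.

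Of the other homologues, those of the blue light receptors ZTL, FKF1 and LKP2, which target clock proteins for degradation in Arabidopsis, were upregulated in 13 of 16 unigenes, beside 25.0% of all unigenes. The pseudo-response regulators, repressors of the Arabidopsis clock, were upregulated in 3 of 9 unigenes with a read. Of ELF3, a component of the evening complex, 1 of 2 unigenes was upregulated, and of the kinase WNK1 1 of 3. Whether these small counts differ from the share of all unigenes was not tested. The single unigene of TOC1 had 11 BL reads and 5 dark reads, a log2 ratio of 1.07 and an FDR of 0.297 in the Audic-Claverie test, and that of CO had 19 BL reads and 5 dark reads, a log2 ratio of 1.86 and an FDR of 0.0158. Both missed the FDR threshold. GC content was 64.5% for TOC1 and 66.9% for CO. Its median was 58.0% for ZTL, FKF1 and LKP2, 62.2% for the pseudo-response regulators, 62.4% for ELF3 and 57.1% for WNK1. It was 52.3% for all unigenes. The median log2 ratio was 0.91 in the GC class at 57.3% and 1.92 in that at 65.36%. The part of GC content in the ratios of these homologues was not tested. Some unigenes stood under more than 1 of these names.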

How the data were processed

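The authors assembled the clean reads with SOAPdenovo and aligned them back to the unigenes; the aligner is not given in the sources used here. The deposited counts are the authors' whole numbers of uniquely aligned reads per unigene and library, without normalization. The deposited percent values give the covered length, the GC content and the unknown bases of each unigene, by the file headers. A unigene absent from a library's list was set to 0.

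RPKM was computed here from counts, lengths and the library's uniquely aligned reads. A quasi-likelihood test cannot be fitted with 1 library per treatment, so the 2-sided Audic-Claverie test was used, with Benjamini-Hochberg adjustment over 70288 unigenes. No length minimum was set, because 3 CK2 unigenes were under 500 bp. Limits at a count of 0 use 3 reads. For the calls, a level of 0 was instead set to 0.001 RPKM. Unigenes read in only 1 library therefore always passed the ratio threshold, and P and FDR alone decided their call. Like unigenes for the covered length differed by at most 10% in length and 20% in reads. All CK2 unigenes and the CCA1 and LHY homologues are named, and other clock homologues are given by counts. The members, lists and tests were chosen with earlier results of these data known.

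Alternatives were TMM and median-of-ratios scaling, removal of the GC trend (a line through medians of 20 GC classes), other tests, adjustments and filters, a pseudocount of 1 RPKM, edgeR's exact test with assumed coefficients of variation of 0.2 and 0.4, and other ways to sum a subunit. Leaving out Unigene12607 or Unigene9399 was chosen after the data were seen. Python 3.11.15, numpy 2.4.6, pandas 2.3.3, scipy 1.17.1, R 4.3.3 and edgeR 4.0.16 were used.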

Additional observations from a re-analysis of the deposited data

How the results depend on the processing

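TMM scaling shifted every log2 ratio by -0.29 and median-of-ratios scaling by -0.42, and no CK2 unigene changed direction under either. With median-of-ratios scaling 1 CK2 unigene was called downregulated, Unigene21867 at -1.02. With the GC trend removed 1 CK2 unigene was upregulated and 2 were downregulated. The log2 ratios were then -2.23 for Unigene12607, -2.09 for Unigene7401, 0.50 for Unigene48109 and, with the sign turned, 0.093 for Unigene28863, -0.10 for Unigene61208 and 0.054 for Unigene229. Of the other clock homologues 9 were then upregulated and 4 downregulated. At an absolute log2 ratio of at least 2, 1 CK2 unigene was upregulated. The share of all unigenes called is given for the main thresholds alone, so the counts of this paragraph have no background beside them. With edgeR's exact test at an assumed coefficient of variation of 0.4, 0 CK2 unigenes and 4 other clock homologues were upregulated, and at 0.2 it called 13 of these homologues.

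The sums by subunit moved more. The log2 ratio of summed CK2α was 0.025 as a sum of RPKM, 1.04 without the most-read unigene of each subunit or without Unigene12607, 1.80 over the unigenes of the study's list of BL-responsive clock homologues, -0.30 with the GC trend removed and -0.39 without Unigene9399. That of CK2β was -0.059 as a sum of RPKM, 0.021 without its most-read unigene, 2.38 over the responsive list and 0.013 with the GC trend removed. The α minus β difference was 0.083 as a sum of RPKM, 1.02 without the most-read unigenes, -0.57 over the responsive list, -0.31 with the GC trend removed, 1.26 without Unigene12607 and -0.17 without Unigene9399. The responsive list was chosen by the study on these same libraries, so its sums are fixed upwards by that choice and check nothing. Its CK2α entries were Unigene9399 and Unigene61208. The latter was not called here, with an FDR of 0.331 in the Audic-Claverie test. The cause of the other changes was not tested.

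No paired analysis was possible because each treatment has 1 library, and for the same reason no replicate was left out and DESeq2 was not run. Spread between individuals or cultures was not measured in the sequencing data, and the assumed coefficients of variation are no estimate of it. Unigene49360, Unigene61208, Unigene7401, Unigene28863 and Unigene48109 carry few reads and have wide intervals, that of Unigene49360 without an upper end. Reads shared by unigenes of like sequence are not in the counts, which hold unique alignments alone.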
